A study of Mus musculus with 12 samples.

Results

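The genes described here are 63 drug and steroid metabolizing enzymes, measured in scrapings of the mouse fundic mucosa, the part of the stomach lining that makes acid. They were chosen by symbol from the cytochrome P450 families Cyp1 to Cyp4, the glutathione S-transferases (Gst), the UDP-glucuronosyltransferases (Ugt) and the sulfotransferases (Sult). Each gene was represented by 1 probe set, a group of short probes for a transcript, namely the one of highest mean intensity over the 12 arrays. Genes were then selected on that mean, which had to be 100 or above in the arbitrary units of the arrays, which left 63 of 84 genes of these families, out of 12393 named genes in all. The 63 comprised 3 of 3 Cyp1, 25 of 31 Cyp2, 2 of 5 Cyp3, 6 of 10 Cyp4, 18 of 18 Gst, 7 of 11 Sult and 2 of 6 Ugt genes. Just inside the threshold lay Cyp2g1, with a mean of 124, and Sult1e1, with 134, and just outside lay Sult1c1, with 88.5, and Cyp2j5, with 75.4. Of the 63, 62 had a mean of 100 or above in all 4 groups, and the exception was Cyp2g1, at 77.7 in the saline-infused knockout. Another 9 probe sets carried several symbols of these families, among them those of the Ugt1 genes, and were not used.

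The series compared wild-type mice, mice with a gastrin knockout that received either saline or gastrin by infusion for 1 week, and mice with a double knockout of gastrin and cholecystokinin (CCK). There were 3 arrays for each of the 4 groups. Both infused groups lack the gastrin gene, and the saline-infused mice were male and 2 months old, an age and sex that the labels give for no other group. Neither the wild-type nor the double-knockout mice were described as infused, so that infusion differs along with genotype wherever an infused group is set against one of them. A wild-type sample held pooled tissue of approximately 2 to 4 mice, and nothing in the labels ties the arrays of a group to separate animals, so the p-values rest on the spread from sample to sample alone, and this spread may be technical.

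Cytochrome P450 enzymes insert oxygen into drugs, steroids, fatty acids and retinoids. Glutathione S-transferases, sulfotransferases and glucuronosyltransferases then attach glutathione, sulfate or glucuronic acid, which makes most products more water-soluble and easier to export. The liver is the main site of this chemistry, and epithelia that face food, the stomach included, carry a set of their own. Several of the genes are induced through ligand-activated receptors, such as the Cyp2b genes through the constitutive androstane receptor and the Cyp1 genes through the aryl hydrocarbon receptor. Gastrin, the hormone of antral G cells, acts on parietal and enterochromaffin-like cells of the fundus, and CCK is its close relative.

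The array medians lay between 403 and 421, and replicate arrays correlated at r = 0.955 to 0.973 over all probe sets on the log2 scale. Gast, the gene deleted in all knockout groups, read 596, 318 and 823 in wild type and at most 37 on every knockout array. Cck read 17, 98 and 48 in wild type and 40, 54 and 130 in the double knockout, so that this probe set did not check the CCK label. The sum of 7 of 7 parietal cell markers was 150911 to 183627 in wild type, 102384 to 124046 with saline, 162554 to 168986 with gastrin and 100152 to 112291 in the double knockout. That of 3 of 4 enterochromaffin-like cell markers was 7339 to 12887, 2484 to 2826, 14788 to 22341 and 2658 to 3696 in the same order, and that of 7 of 7 stromal and smooth muscle markers 16296 to 19201, 9273 to 17703, 17387 to 28105 and 6730 to 14269. The chief cell sum, of 5 of 6 markers, was 97590 to 102079 in the double knockout and 132871 to 168215 in the other groups. Most of it came from Pgc, with means of 97715 in wild type and 59505 in the double knockout. Pgc (-0.71, adjusted p = 0.00326) and Cblif (-0.65, adjusted p = 0.0339) fell there from wild type. The other chief markers did not pass: Bhlha15 changed by -0.44 (adjusted p = 0.321), Pga5 by 0.01 and Lipf by 0.89 (adjusted p = 0.641). Lipf was within the noise on 7 arrays. The part of these cell types in the changes below was not tested. The ratio of 3' to 5' Gapdh control signal, which rises as RNA is degraded, was 1.51, 2.00 and 0.98 in wild type, and its group mean was 1.10 ± 0.08 with saline, 1.20 ± 0.02 with gastrin and 1.31 ± 0.01 in the double knockout (SD, n = 3). The brightest signals were lower in the double knockout. The highest value of an array there was 65365 to 71514, against 88899 to 113441 in the other groups. Whether the array scale or the tissue gave this was not tested. Levels are given below as deposited intensities with the SD between 3 arrays. Changes are differences of group means on the log2 scale, with values under 16 raised to 16, with the standard error (SE) and the limma p-value after Benjamini-Hochberg adjustment over 22626 probe sets, called where it was under 0.05.

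Few of the 63 enzymes passed the test in any comparison, and 14 genes accounted for the 21 calls. The saline-infused knockout differed from wild type in 4 of 63 genes, against 2.08% of all probe sets tested: Ugt2b34 rose (0.707% of all probe sets rose), and Gstk1, Cyp4v3 and Gstm7 fell (1.37% fell). Gastrin infusion against saline changed 5 of 63, against 1.25% of all: Gstk1, Sult1a1 and Cyp2b10 rose (0.773%), and Ugt2b34 and Sult2b1 fell (0.473%). The double knockout differed from wild type in 7 of 63, against 4.14% of all: Cyp2b9 rose (2.02%), and Gsto1, Gstp1, Gstk1, Gstt1, Cyp2j6 and Cyp1a1 fell (2.12%). It differed from the saline-infused knockout in 4 of 63, against 5.98% of all: Cyp4v3 rose (3.22%), and Ugt2b34, Gsta4 and Gsto1 fell (2.76%). The gastrin-infused knockout differed from wild type in 1 of 63, against 0.11% of all, and that gene, Cyp2b10, rose (0.0663%), while none of the 63 fell (0.0442%). As shares of the 63 these were 6.35%, 7.94%, 11.1%, 6.35% and 1.59%, so that in the double knockout against the saline-infused knockout the share was near that of all probe sets. These comparisons share arrays.

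**Figure D1:**
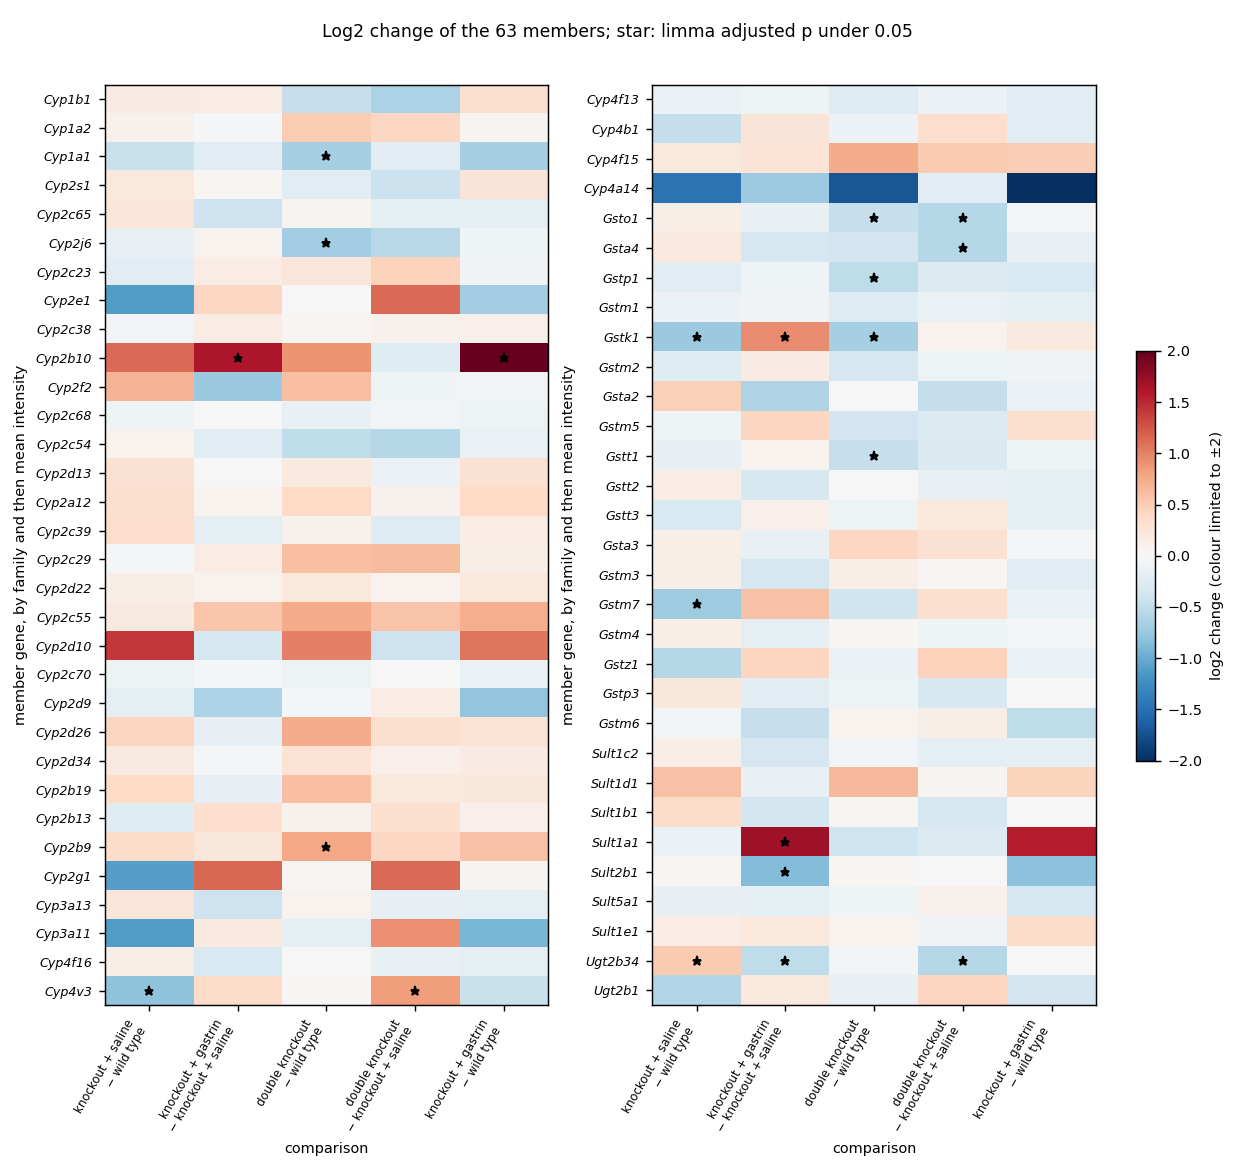
Log2 change of each of the 63 genes (rows, by family and then by mean intensity) in the 5 comparisons (columns), red for higher and blue for lower in the group named first, with the colour limited to a change of 2 either way. Stars mark the 21 results past an adjusted p of 0.05, and the deep blue row without a star is Cyp4a14.

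The median change over the 63 genes was 0.08 for saline against wild type, -0.03 with gastrin against saline, 0.00 in the double knockout against wild type, -0.06 in the double knockout against the saline-infused knockout and -0.06 with gastrin against wild type. Over all probe sets each of these medians was 0.00. The groups did not overlap in 18 of 63 genes between the saline-infused knockout and wild type, against 23.4% of all probe sets, with 8 higher (10.9%) and 10 lower (12.4%). Between gastrin and saline this held for 15 genes (20.8%), 8 higher (10.5%) and 7 lower (10.3%). Between the double knockout and wild type it held for 23 genes (24.5%), 10 higher (11.6%) and 13 lower (12.9%). Between the double and the saline-infused knockout it held for 18 genes (26.1%), 6 higher (13.5%) and 12 lower (12.7%), and between the gastrin-infused knockout and wild type for 14 genes (16.7%), 6 higher (7.31%) and 8 lower (9.41%). Over the 10646 named genes that met the same minimum of 100, each by its brightest probe set, the shares called were 2.57%, 1.61%, 4.39%, 6.29% and 0.141% in the order of the comparisons above, and the shares without overlap were 26.9%, 23.6%, 25.9%, 27.7% and 17.9%. In the comparison of the saline-infused knockout with wild type, the count of 4 became 2 without wild-type array 1 and 0 without wild-type array 2 or 3. It became 1 without saline array 1, 0 without saline array 2 and 4 without saline array 3. The 4 genes called without saline array 3 were not the same 4, since Gstk1 and Gstm7 lost their calls there. In that of gastrin with saline, the 5 calls became 1 without saline array 1 or 2, 0 without saline array 3 and 2 without any of the gastrin arrays. In that of the double knockout with wild type, the 7 calls became 1 without wild-type array 1 or 2, 0 without wild-type array 3, 0 without double-knockout array 1 and 1 without double-knockout array 2 or 3. The calls in the double knockout against the saline-infused knockout numbered 3 to 5 over the 6 arrays left out in turn, and those with gastrin against wild type 1 or 2, the higher count coming without gastrin array 1 or 3. In a fit on the 6 arrays of the 2 groups alone, 0 of 63 genes passed in each of the 5 comparisons, where 22, 20, 43, 208 and 3 of all probe sets passed, in the order given above. With the Gapdh ratio as a covariate, the counts were 1, 4, 1, 4 and 1.

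Among the P450 genes, Cyp2b10 gave the largest change with a call. Cyp2b10 encodes a drug-oxidizing enzyme best known from phenobarbital-treated liver. Its intensity was 253, 231 and 233 in wild type, 778, 491 and 372 with saline, 1744, 1287 and 1816 with gastrin, and 485, 415 and 433 in the double knockout. All 3 knockout groups lay above wild type without overlap, the gastrin-infused arrays lay above every other array, and the saline-infused and double-knockout arrays overlapped. The gastrin-infused mean, 1616 ± 287, was 6.69-fold that of wild type, 239 ± 12.2, as a ratio on the log2 scale (2.74 ± 0.24 SE, adjusted p = 0.00493). Against saline, 547 ± 209, it rose 3.06-fold (1.61 ± 0.24 SE, adjusted p = 0.0255). The difference of the saline-infused knockout from wild type was 1.13 ± 0.24 (adjusted p = 0.0517) and that of the double knockout 0.89 ± 0.24 (adjusted p = 0.0758), and neither passed. Because these are whole scrapings, more cells that carry a transcript and more transcript per cell cannot be told apart, here or below.

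The gain of Cyp2b10 over wild type passed without each of the 6 arrays of the comparison in turn. It did not pass without both wild-type arrays of high Gapdh ratio (2.78, adjusted p = 0.0726) or without the 3 arrays of highest Alb (2.66, adjusted p = 0.102). The gain over saline did not pass without saline array 2 (1.57, adjusted p = 0.0635), saline array 3 (1.37, adjusted p = 0.0504), gastrin array 1 (1.55, adjusted p = 0.0678) or gastrin array 3 (1.52, adjusted p = 0.0706). The probe set used ends in _s_at, which marks probes that can read more than 1 related transcript. A second such probe set of Cyp2b10 rose with gastrin over saline by 1.33 ± 0.21 (adjusted p = 0.0308) and over wild type by 2.34 ± 0.21 (adjusted p = 0.00501). Another probe set, without that mark, read means of 328 in wild type, 501 with saline, 762 with gastrin and 395 in the double knockout, and its changes of 0.58 over saline (adjusted p = 0.337) and 1.26 over wild type (adjusted p = 0.150) did not pass.

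Cyp2b9 is a close relative of Cyp2b10 and lies near it in a run of 4 neighbouring members that also holds Cyp2b13 and Cyp2s1. Cyp2b9 read 96, 141 and 134 in wild type, 144, 175 and 153 with saline, 207, 180 and 166 with gastrin, and 182, 194 and 257 in the double knockout. Every knockout array lay above every wild-type array, and the saline-infused and gastrin-infused arrays overlapped. The double knockout rose 1.71-fold over wild type (0.77 ± 0.18 SE, adjusted p = 0.0486). That call was lost without any one of the 6 arrays compared (0.60 to 0.88, adjusted p = 0.0732 to 0.127). The change with gastrin over wild type was 0.59 ± 0.18 (adjusted p = 0.276), and with saline 0.36 ± 0.18 (adjusted p = 0.329). Cyp2b13 read 74 to 207 and Cyp2b19 125 to 283 over the 12 arrays, and neither passed in any comparison.

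The 250 bases upstream of the annotated start are given for both genes. They were chosen since, by the probe sets used, all knockout arrays lay above wild type in both genes. By the Cyp2b10 probe set without the _s_at mark, wild-type array 3 (461) lay above the double-knockout arrays (328, 432 and 426). The windows are from RefSeq, build GRCm38.p6, at chr7:25897408-25897657 (plus strand) for Cyp2b10 and chr7:26173159-26173408 (plus strand) for Cyp2b9.
Cyp2b10: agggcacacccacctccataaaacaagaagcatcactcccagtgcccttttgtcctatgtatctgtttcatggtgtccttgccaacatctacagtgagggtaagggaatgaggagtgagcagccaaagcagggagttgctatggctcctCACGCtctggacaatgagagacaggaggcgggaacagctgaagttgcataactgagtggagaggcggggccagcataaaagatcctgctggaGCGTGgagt
Cyp2b9: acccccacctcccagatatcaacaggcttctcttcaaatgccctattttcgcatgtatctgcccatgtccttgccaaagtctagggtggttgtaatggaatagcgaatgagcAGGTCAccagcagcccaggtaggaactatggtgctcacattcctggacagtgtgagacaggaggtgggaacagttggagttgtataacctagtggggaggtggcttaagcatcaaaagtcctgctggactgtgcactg
Capitals mark the motifs that were searched on both strands: GCGTG, the core bound by the aryl hydrocarbon receptor, AGGTCA, a half-site of nuclear receptors, TGACNNNGC, the core of the antioxidant response element, and the TATAAA box. Read on the opposite strand, AGGTCA can share letters with TGACNNNGC, and no such overlap occurred in the windows printed. In a global alignment the pair was identical at 187 of 262 columns, or 71.4%, while the other 77 pairs among 13 of the 14 called genes with a window lay between 41.6% and 53.9%. The Cyp2b10 window held GCGTG at position -9 from the start and on the opposite strand at -101, and the Cyp2b9 window held AGGTCA at -138. GCGTG was found in 28.2% of the 32851 promoter windows of the same length in the table and in 15 of 64 windows (23.4%) of the 54 members with one. AGGTCA was found in 14% of all and 17.2% of member windows, TGACNNNGC in 10.2% and 4.69%, and TATAAA in 12.4% and 25%.

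**Figure D2:**
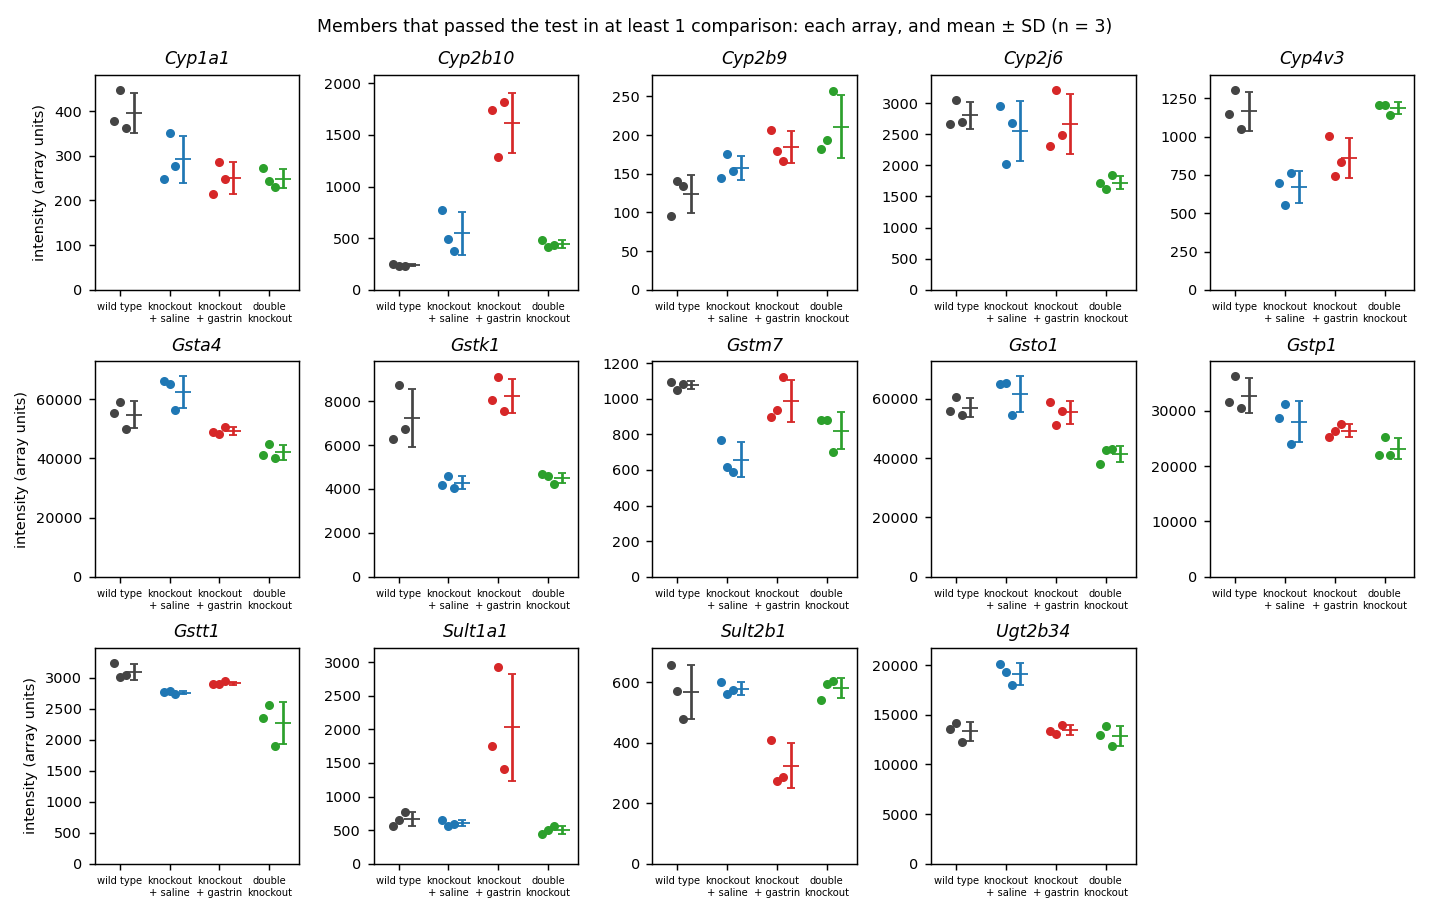
Intensity in array units (vertical axes, from 0) of the 14 genes that passed the test in at least 1 comparison, with a point for each array and the mean and SD of 3 arrays beside them, for wild type, saline-infused and gastrin-infused gastrin knockout, and double knockout. The 3 gastrin-infused arrays stand above the others for Cyp2b10 and Sult1a1 and below them for Sult2b1, and the 3 saline-infused arrays stand above the others for Ugt2b34.

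Cyp4v3 fell in the saline-infused knockout and was higher in the double knockout than there. CYP4V enzymes hydroxylate fatty acids, and the human counterpart is mutated in a retinal dystrophy. Cyp4v3 read 1145, 1301 and 1049 in wild type, 698, 556 and 760 with saline, 1006, 744 and 832 with gastrin, and 1208, 1205 and 1139 in the double knockout. Saline-infused arrays lay below all wild-type and all double-knockout arrays, and they overlapped the gastrin-infused arrays. The saline-infused knockout fell 1.74-fold from wild type (-0.80 ± 0.14 SE, adjusted p = 0.0315), and the double knockout rose 1.78-fold over it (0.83 ± 0.14 SE, adjusted p = 0.0152). The change with gastrin over saline was 0.36 ± 0.14 (adjusted p = 0.264). A second probe set of the gene fell in the saline-infused knockout by 1.29 ± 0.16 (adjusted p = 0.0104) and rose in the double knockout over it by 1.14 ± 0.16 (adjusted p = 0.00789). That probe set read 235, 232 and 228 with saline and 474, 289 and 375 with gastrin, without overlap. Its change with gastrin over saline, 0.68 ± 0.16, did not pass (adjusted p = 0.0784). The probe set used above is marked _s_at, and the second is not. The fall from wild type passed only without saline array 3 among the 6 arrays left out in turn, and was lost without the others (-0.67 to -0.87, adjusted p = 0.0541 to 0.101). The rise in the double knockout was lost without double-knockout array 1 (0.82, adjusted p = 0.0553).

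Cyp2j6 and Cyp1a1 fell in the double knockout. Cyp2j6 belongs to the arachidonic acid epoxygenases, and Cyp1a1 is the classic target of the aryl hydrocarbon receptor. Cyp2j6 read 2658, 3047 and 2701 in wild type, 2957, 2018 and 2678 with saline, 2311, 3213 and 2480 with gastrin, and 1717, 1615 and 1837 in the double knockout. The double-knockout arrays lay below every other array, and the fall from wild type was 1.63-fold (-0.70 ± 0.16 SE, adjusted p = 0.0475). Against the saline-infused knockout the change was -0.55 ± 0.16 (adjusted p = 0.0849). Cyp1a1 read 377, 447 and 363 in wild type, 247, 351 and 277 with saline, 215, 287 and 247 with gastrin, and 272, 243 and 231 in the double knockout. All 9 knockout arrays lay below the wild-type arrays. The double knockout was 1.59-fold lower (-0.67 ± 0.16 SE, adjusted p = 0.0486), the gastrin-infused knockout changed by -0.67 ± 0.16 (adjusted p = 0.187) and the saline-infused by -0.45 ± 0.16 (adjusted p = 0.175). Without any one of the 6 arrays compared the call was lost for Cyp2j6 (-0.64 to -0.75, adjusted p = 0.0932 to 0.135) and for Cyp1a1 (-0.58 to -0.73, adjusted p = 0.0792 to 0.139). The other Cyp1 genes, Cyp1a2 and Cyp1b1, passed in no comparison.

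The P450 genes that differed most between arrays of the same group were Cyp4a14, Cyp2f2, Cyp2g1, Cyp2e1 and Cyp3a11, with SDs within groups of 2.29, 1.18, 1.03, 0.86 and 0.86 on the log2 scale. Cyp4a14 is a fatty acid hydroxylase of liver and kidney that responds to the receptor PPAR alpha. It read 247, 125 and 657 in wild type, 79, 65 and 181 with saline, 578, 22 and 14 with gastrin, and 33, 6 and 1104 in the double knockout, and no group stood clear of another. Its changes had SEs of 1.75 and did not pass: -1.48 for saline against wild type (adjusted p = 0.715), -1.71 for the double knockout against wild type (adjusted p = 0.655), although the mean intensity there was higher, 381 against 343, and -2.21 for gastrin against wild type (adjusted p = 0.683). Against saline the gastrin-infused change was -0.73 (adjusted p = 0.904), and it turned to 0.21 without gastrin array 3. Cyp2e1, which oxidizes ethanol and acetone, read 1116, 683 and 1862 in wild type, 538, 478 and 541 with saline, 1420, 646 and 361 with gastrin, and 436, 2122 and 1567 in the double knockout. Cyp3a11, a major steroid and drug hydroxylase of liver, read 265, 245 and 624, then 132, 161 and 189, then 299, 153 and 132, and then 183, 163 and 909 in the same order. The double knockout differed from the saline-infused knockout by 1.13 ± 0.66 in Cyp2e1 (adjusted p = 0.379) and by 0.92 ± 0.66 in Cyp3a11 (adjusted p = 0.482). Without double-knockout array 1 the difference in Cyp2e1 was 1.82 and without array 2 it was 0.67, and without array 3 that in Cyp3a11 was 0.12.

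The 3 arrays with the highest Cyp4a14 were also the 3 with the highest albumin transcript. Alb, the liver marker, read 986, 919 and 2703 in wild type, 243, 231 and 433 with saline, 2225, 303 and 325 with gastrin, and 252, 290 and 1362 in the double knockout. In each of the 4 groups the array of highest Alb, which was wild-type array 3, saline array 3, gastrin array 1 and double-knockout array 3, also held the highest Cyp4a14 and Cyp3a11 of its group. For Cyp2e1 this held in wild type, with saline and with gastrin, while in the double knockout the highest value was on array 2, which read 1813 for the fat marker Adipoq against 109 and 5 on the other two arrays. The sum of 8 of 9 liver markers measured was 36370 to 51544 in wild type, 23697 to 30189 with saline, 40476 to 45914 with gastrin and 31065 to 33190 in the double knockout, and Fgb was within the noise on 10 of 12 arrays. The sum of 2 of 4 fat markers measured was 6896 to 8414, 6836 to 8171, 3921 to 6295 and 1913 to 9310 in the same order. Most of the liver sum came from Apoa1, at 16293 to 35897 over the 12 arrays, and Ttr, at 5495 to 13411. That sum did not follow Alb: in the double knockout Apoa1 read 22737, 22023 and 22162, while Alb was highest on array 3. The part of liver or fat tissue in these values was not tested. Cyp2f2, a naphthalene-oxidizing enzyme known from airway epithelium, varied in another way: it read 489, 253 and 246 in wild type, 794, 159 and 1005 with saline, 254, 486 and 223 with gastrin, and 911, 124 and 950 in the double knockout. The forestomach keratin Krt13 read 1453, 666 and 462 in wild type, 5391, 1171 and 4370 with saline, 301, 2822 and 485 with gastrin, and 4929, 547 and 4986 in the double knockout. Array 2 of the saline-infused and of the double knockout was the lowest of its group in both genes, and wild-type array 1 and gastrin array 2 were the highest of theirs in both. The sum of 10 of 10 forestomach markers was 22094 to 34011 in wild type, 27006 to 62566 with saline, 12878 to 29225 with gastrin and 14667 to 43778 in the double knockout, and its part in Cyp2f2 was not tested. The change of Cyp2f2 with gastrin over saline, -0.73 ± 0.91, did not pass (adjusted p = 0.766).

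**Figure D3:**
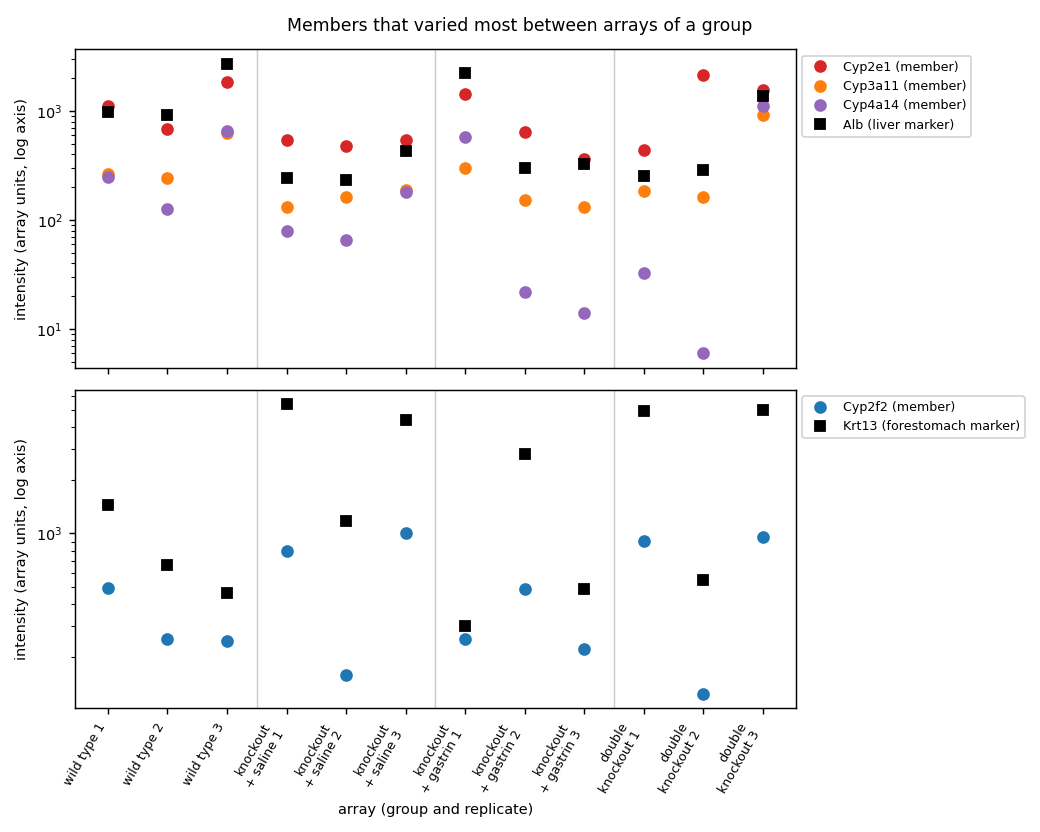
Intensity on a log axis of 3 P450 genes beside the liver marker Alb (top) and of Cyp2f2 beside the forestomach marker Krt13 (bottom), for each of the 12 arrays in 4 groups of 3 (horizontal axis). The highest points of Cyp4a14 in wild type, with gastrin and in the double knockout fall on the arrays of highest Alb in those groups, at 657, 578 and 1104.

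Of the remaining P450 genes, Cyp2d10 and Cyp2g1 had large changes that did not pass. Cyp2d10 read 76, 186 and 230 in wild type, 423, 370 and 397 with saline, 512, 183 and 322 with gastrin, and 238, 287 and 385 in the double knockout, with changes from wild type of 1.42 ± 0.46 (adjusted p = 0.153), 1.07 ± 0.46 (adjusted p = 0.413) and 1.01 ± 0.46 (adjusted p = 0.266). The saline-infused and double-knockout arrays lay above wild type, and gastrin array 2 lay among the wild-type values. Cyp2g1, known from olfactory mucosa, read -10 to 213 over the 12 arrays, and 4 of them were within the noise. Its changes of 1.15 with gastrin over saline (adjusted p = 0.537) and 1.13 in the double knockout over saline (adjusted p = 0.471) did not pass, and they were 0.20 and 0.18 without saline array 2, which read -10. Cyp2s1, a retinoid-oxidizing enzyme of epithelia, read 24029 to 39554 over the 12 arrays and Cyp2c65 read 7641 to 12054, and neither passed in any comparison. None of the 9 Cyp2c genes, 6 Cyp2d genes or 2 Cyp3a genes passed in any of the 5 comparisons.

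Among the glutathione S-transferases, Gstk1 was the gene called most often, falling in both groups without gastrin and rising when gastrin was infused. Gstk1 is the kappa-class transferase of mitochondria and peroxisomes. It read 6260, 8734 and 6720 in wild type, 4181, 4612 and 4037 with saline, 8053, 9094 and 7573 with gastrin, and 4678, 4591 and 4242 in the double knockout. All 6 arrays of the saline-infused and double knockouts lay below all 6 of wild type and the gastrin-infused knockout. The mean fell from 7238 ± 1316 in wild type to 4277 ± 299 with saline, a 1.68-fold difference (-0.75 ± 0.13 SE, adjusted p = 0.0264), and to 4504 ± 231 in the double knockout, a 1.59-fold difference (-0.67 ± 0.13 SE, adjusted p = 0.0276). With gastrin it rose to 8240 ± 778, which was 1.92-fold the saline level (0.94 ± 0.13 SE, adjusted p = 0.0193). The gastrin-infused knockout differed from wild type by 0.20 ± 0.13 (adjusted p = 0.608), and the double from the saline-infused knockout by 0.08 ± 0.13 (adjusted p = 0.811).

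The fall of Gstk1 with saline from wild type passed without wild-type array 1 and was lost without any of the other 5 arrays (-0.60 to -0.80, adjusted p = 0.0532 to 0.0864) and with the Gapdh ratio as a covariate (-0.62, adjusted p = 0.110). Its rise with gastrin was lost without saline array 1 (0.93, adjusted p = 0.0573), saline array 3 (0.90, adjusted p = 0.0566) or gastrin array 2 (0.87, adjusted p = 0.0592). Its fall in the double knockout was lost without wild-type array 3 or any of the double-knockout arrays (-0.63 to -0.72, adjusted p = 0.0547 to 0.0805). The parietal marker sum given above was likewise lower in the saline-infused and double knockouts than in the other groups. Most of it came from Atp4b and Atp4a, with double-knockout means of 48755 and 39921. Both are above a mean of 10000, where 88.1% of probe sets were lower in the double knockout than in wild type. All 7 markers were below 0 in the double knockout against wild type (-0.31 to -0.82), and Atp4b and Atp4a passed. Against saline, 6 of the 7 were above 0 in the double knockout, and Kcnq1 passed (0.95 ± 0.24 SE, adjusted p = 0.0484). The upstream window of Gstk1, shown because the gene separated the groups with and without gastrin, lies at chr6:42245685-42245934 on the plus strand of GRCm38.p6 and holds AGGTCA on the opposite strand at -141, in capitals.
Gstk1: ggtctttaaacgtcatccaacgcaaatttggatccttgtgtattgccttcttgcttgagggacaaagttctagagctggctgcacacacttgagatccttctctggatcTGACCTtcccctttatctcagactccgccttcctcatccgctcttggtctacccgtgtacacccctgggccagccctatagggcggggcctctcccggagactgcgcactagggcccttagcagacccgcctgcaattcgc

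Gstm7, of the mu class, fell in the saline-infused knockout. It read 1095, 1050 and 1081 in wild type, 768, 619 and 587 with saline, 900, 937 and 1124 with gastrin, and 878, 881 and 701 in the double knockout. Saline-infused arrays lay below every wild-type and gastrin-infused array, and the fall from wild type was 1.65-fold (-0.72 ± 0.13 SE, adjusted p = 0.0346). It was called only without saline array 1 among the 6 arrays left out in turn, and lost without the others (-0.64 to -0.74, adjusted p = 0.0811 to 0.0940). The difference of gastrin from saline, 0.59 ± 0.13, did not pass (adjusted p = 0.0705). A second probe set of the gene fell by 0.85 ± 0.18 with saline (adjusted p = 0.0485). It rose in the double knockout over the saline-infused knockout by 1.39 ± 0.18 (adjusted p = 0.00517), where the first probe set gave 0.32 ± 0.13 (adjusted p = 0.205). For the double knockout against wild type the 2 probe sets disagreed in direction. The first gave -0.40 and the second 0.54 ± 0.18 (adjusted p = 0.136), and neither passed. The other 6 mu-class genes, which lie with Gstm7 in a run of 7 neighbouring members, passed in no comparison. Among them Gstm5 read 2997, 2979 and 2985 in wild type, 2848, 2477 and 3030 with saline, 3430, 4148 and 3638 with gastrin, and 2361, 2377 and 2161 in the double knockout; its gastrin-infused arrays were the highest and its double-knockout arrays the lowest. Its changes were 0.43 ± 0.09 for gastrin against saline (adjusted p = 0.0677) and -0.38 ± 0.09 for the double knockout against wild type (adjusted p = 0.0611).

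Gsto1, Gsta4, Gstp1 and Gstt1 fell in the double knockout. Gsto1 is the omega-class thioltransferase, Gsta4 conjugates the lipid peroxidation product 4-hydroxynonenal, Gstp1 is the pi-class enzyme of many epithelia and Gstt1 is of the theta class. Gsto1 read 55978, 60573 and 54366 in wild type, 64806, 65377 and 54628 with saline, 59016, 51278 and 55897 with gastrin, and 38161, 42674 and 43009 in the double knockout. Gsta4 read 55321, 58975 and 49832 in wild type, 66083, 65069 and 56182 with saline, 49026, 48179 and 50559 with gastrin, and 41065, 45013 and 40208 in the double knockout. In both genes the double-knockout arrays lay below all 9 others. Gsto1 was 1.49-fold lower than with saline (-0.57 ± 0.09 SE, adjusted p = 0.0122) and 1.38-fold lower than in wild type (-0.47 ± 0.09 SE, adjusted p = 0.0350). Gsta4 was 1.48-fold lower than with saline (-0.57 ± 0.09 SE, adjusted p = 0.0106), and its difference from wild type was -0.38 ± 0.09 (adjusted p = 0.0504).

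Gstp1 read 31498, 36298 and 30412 in wild type, 28737, 31283 and 24063 with saline, 25181, 26419 and 27522 with gastrin, and 21968, 25306 and 22064 in the double knockout. The double-knockout arrays lay below wild type and overlapped both infused groups, and the fall from wild type was 1.42-fold (-0.50 ± 0.11 SE, adjusted p = 0.0444). Gstt1 read 3247, 3012 and 3047 in wild type, 2768, 2788 and 2739 with saline, 2904, 2899 and 2946 with gastrin, and 2352, 2571 and 1895 in the double knockout. Its double-knockout arrays lay below all others, and the fall from wild type was 1.38-fold (-0.46 ± 0.10 SE, adjusted p = 0.0416). The falls from wild type were lost without any one of the 6 arrays for Gsto1 (-0.41 to -0.50, adjusted p = 0.0611 to 0.0998) and Gstp1 (-0.42 to -0.57, adjusted p = 0.0548 to 0.124). That of Gstt1 was lost without any wild-type array or double-knockout array 1 (-0.43 to -0.49, adjusted p = 0.0835 to 0.114). The falls of Gsto1 and Gsta4 from the saline-infused knockout passed without each of the 6 arrays in turn.

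The falls of the bright genes in the double knockout moved with brightness. Of 603 probe sets with a mean of 10000 or above, 88.1% were lower in the double knockout than in wild type, with a median of -0.29, and 86.7% were lower than in the saline-infused knockout, with a median of -0.32. All 7 members of that brightness, Gsto1, Gsta4, Cyp2s1, Gstp1, Sult1c2, Ugt2b34 and Gstm1, were below 0 in both comparisons, with medians of -0.25 and -0.43. After quantile normalization, which gives every array the same distribution, the medians of the 603 were -0.01 and -0.02 and those of the 7 were 0.03 and -0.03. Gsto1 then changed by -0.04 against wild type (adjusted p = 0.737) and -0.03 against saline (adjusted p = 0.825), Gsta4 by -0.04 against saline (adjusted p = 0.807) and Gstp1 by -0.20 against wild type (adjusted p = 0.211), and none passed. Gstk1 and Gstt1 still passed against wild type in that setting, and Ugt2b34 and Cyp4v3 against saline. The 4 surface mucous cell markers also fell in the double knockout, by 0.52 to 0.66 from wild type, before normalization. A second probe set of Gsto1 fell by 0.67 ± 0.16 from the saline-infused level (adjusted p = 0.0477) and changed by -0.35 from wild type (adjusted p = 0.283).

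**Figure D4:**
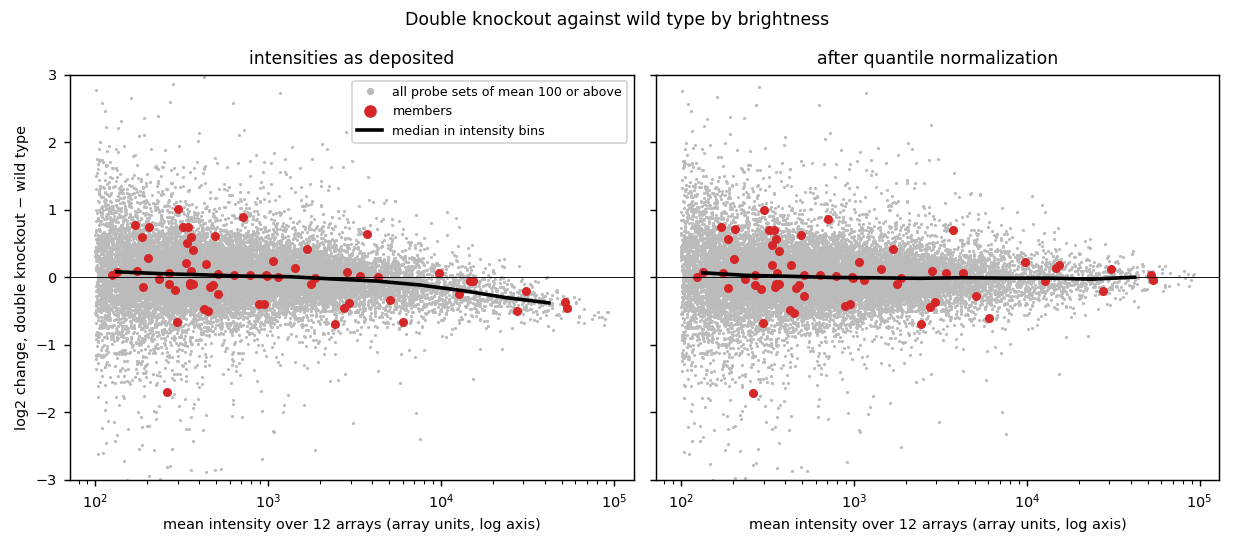
Log2 change of the double knockout against wild type (vertical axis, limited to 3 either way) by mean intensity over 12 arrays (horizontal log axis), as deposited (left) and after quantile normalization (right), for all probe sets with a mean of 100 or above (grey) and the 63 members (red). The line is the median in intensity bins of 20 or more probe sets; at means of 10000 and above the probe sets had a median of -0.29 as deposited and -0.01 after normalization.

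Among the 7 sulfotransferases, Sult1a1 rose and Sult2b1 fell with gastrin infusion. Sult1a1 sulfates phenols, among them drugs such as paracetamol, and Sult2b1 sulfates cholesterol and related sterols. Sult1a1 read 562, 651 and 769 in wild type, 647, 567 and 591 with saline, 1757, 2933 and 1411 with gastrin, and 439, 501 and 555 in the double knockout. Gastrin-infused arrays lay above all 9 others, double-knockout arrays lay below wild type and saline, and wild type and saline overlapped. The mean with gastrin, 2034 ± 798, was 3.22-fold the saline mean, 602 ± 41.1, on the log2 scale (1.69 ± 0.24 SE, adjusted p = 0.0232). Against wild type, 661 ± 104, the change of 1.56 ± 0.24 did not pass (adjusted p = 0.0609), though it did without gastrin array 3. The rise over saline was lost without any saline array (1.65 to 1.74, adjusted p = 0.0573 to 0.0608) or gastrin array 1 (1.76, with the adjusted p just above the threshold).

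Sult2b1 read 657, 573 and 478 in wild type, 603, 562 and 575 with saline, 411, 275 and 288 with gastrin, and 542, 596 and 605 in the double knockout. The gastrin-infused arrays lay below all 9 others, and the fall from saline was 1.82-fold (-0.86 ± 0.16 SE, adjusted p = 0.0430). Against wild type the difference was -0.82 ± 0.16 (adjusted p = 0.113). The fall was called without gastrin array 1 and was lost without any of the other 5 arrays (-0.75 to -0.88, adjusted p = 0.0902 to 0.125). Sult2b1 is known from squamous epithelium, and 2 of the 10 forestomach markers, Ly6d and Sfn, fell with gastrin against saline, by 1.63 ± 0.24 (adjusted p = 0.0255) and 1.42 ± 0.24 (adjusted p = 0.0347). All 10 markers were below 0 in that comparison, and all 10 were above 0 with saline over wild type. Sult2b1 means were 569 ± 89.6 in wild type and 580 ± 21.0 with saline. Gastrin array 2 had the highest Ly6d of its group, 1870, and the lowest Sult2b1, 275. The part of forestomach tissue in the change of Sult2b1 was not tested. The upstream window of Sult1a1, shown for the largest rise with gastrin over saline, lies at chr7:126676419-126676668 on the minus strand of GRCm38.p6 and held none of the 4 words.
Sult1a1: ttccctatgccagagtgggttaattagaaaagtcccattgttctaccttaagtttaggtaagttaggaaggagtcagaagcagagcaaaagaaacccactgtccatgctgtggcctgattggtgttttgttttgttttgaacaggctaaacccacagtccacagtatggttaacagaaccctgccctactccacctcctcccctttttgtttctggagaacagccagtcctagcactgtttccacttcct

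The other 5 sulfotransferases passed in no comparison by the probe set used. Sult1d1, which sulfates catecholamines, read 2532, 2666 and 3044 in wild type, 4883, 4698 and 3029 with saline, 4098, 3417 and 3648 with gastrin, and 3752, 4543 and 4601 in the double knockout, with changes from wild type of 0.59 ± 0.18 with saline (adjusted p = 0.139) and 0.64 ± 0.18 in the double knockout (adjusted p = 0.0859). The 2 probe sets of Sult1d1 disagreed: the other one rose with saline over wild type by 0.76 ± 0.09 (adjusted p = 0.00898) and fell in the double knockout from that level by 0.48 ± 0.09 (adjusted p = 0.0176), where the first gave 0.06 ± 0.18 (adjusted p = 0.916). Sult1b1, which sulfates thyroid hormone and phenols, read 3388, 3020 and 3129 in wild type, 4255, 4100 and 3875 with saline, 3375, 2909 and 3164 with gastrin, and 2797, 3601 and 3307 in the double knockout. Its saline-infused arrays lay above all 9 others, with changes of 0.36 ± 0.10 over wild type (adjusted p = 0.115) and -0.37 ± 0.10 with gastrin (adjusted p = 0.115). Sult1c2 read 11801 to 19779, Sult5a1 253 to 518 and Sult1e1, the estrogen sulfotransferase, 65 to 238, with 3 arrays of Sult1e1 within the noise.

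Ugt2b34, a glucuronosyltransferase of the steroid-conjugating 2B subfamily, was higher in the saline-infused knockout than in every other group. It read 13571, 14198 and 12298 in wild type, 20151, 19346 and 17967 with saline, 13354, 13036 and 13985 with gastrin, and 12923, 13867 and 11857 in the double knockout. The 3 saline-infused arrays lay above the other 9, and the other groups overlapped one another. The mean with saline, 19155 ± 1105, was 1.44-fold that of wild type, 13356 ± 968 (0.52 ± 0.08 SE, adjusted p = 0.0219). It fell 1.42-fold with gastrin, to 13458 ± 483 (-0.51 ± 0.08 SE, adjusted p = 0.0316), and was 1.49-fold lower in the double knockout, at 12882 ± 1006 (-0.57 ± 0.08 SE, adjusted p = 0.00868). The differences from wild type were 0.01 ± 0.08 with gastrin (adjusted p = 0.995) and -0.05 ± 0.08 in the double knockout (adjusted p = 0.794). The gene therefore differed between the 2 groups that lack gastrin, which also differ in CCK and in infusion. Ugt2b34 is among the 603 probe sets with a mean of 10000 or above. Their median in the double knockout against wild type was -0.29 as deposited and -0.01 after quantile normalization. The -0.05 of Ugt2b34 in that comparison is on the deposited scale.

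The difference of Ugt2b34 between the double and the saline-infused knockout passed without each of the 6 arrays in turn, and after quantile normalization it was smaller, -0.34 (adjusted p = 0.0211). The rise over wild type was lost without wild-type array 2 or 3 or saline array 1 or 2 (0.46 to 0.57, adjusted p = 0.0542 to 0.0747), and the fall with gastrin without any of the 6 arrays (-0.47 to -0.55, adjusted p = 0.0566 to 0.0979). The probe set is marked _s_at. A second probe set read means of 11126 in wild type, 13928 with saline, 8255 with gastrin and 8201 in the double knockout. It fell in the double knockout from the saline-infused level by 0.76 ± 0.17 (adjusted p = 0.0355), and its changes of 0.32 with saline over wild type (adjusted p = 0.363) and -0.77 with gastrin (adjusted p = 0.0679) did not pass. Ugt2b1, the other member of the family, read 82 to 291 over the 12 arrays and passed in no comparison. The upstream window of Ugt2b34, shown because the gene passed in all 3 comparisons with the saline-infused knockout, lies at chr5:86906938-86907187 on the minus strand of GRCm38.p6 and held none of the 4 words.
Ugt2b34: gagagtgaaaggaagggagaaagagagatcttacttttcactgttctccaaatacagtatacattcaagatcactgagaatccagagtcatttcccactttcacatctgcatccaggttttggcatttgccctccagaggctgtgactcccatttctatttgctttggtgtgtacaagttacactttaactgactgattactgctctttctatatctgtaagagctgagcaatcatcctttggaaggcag

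The genes that supply, extend and regulate these reactions were counted in 6 lists. Of the electron donors of P450 enzymes, 5 of 7 were measured, namely Cyb5a, Cyb5b, Cyb5r1, Cyb5r3 and Fdx1. Por, the P450 reductase, was not among them. Cyb5a, cytochrome b5, rose with saline over wild type by 0.49 ± 0.10 (adjusted p = 0.0427), where 0.707% of all probe sets rose. It fell with gastrin by 0.52 ± 0.10 (adjusted p = 0.0461), where 0.473% fell. Its reductase Cyb5r3 fell in the double knockout from wild type by 0.69 ± 0.14 (adjusted p = 0.0367), where 2.12% fell. Of 37 measured genes of other oxidation, reduction and hydrolysis (43 listed), 2 rose (0.707% of all probe sets) and 0 fell (1.37%) with saline over wild type: the flavin monooxygenase Fmo5 by 0.82 ± 0.14 (adjusted p = 0.0293) and the carboxylesterase Ces1g by 1.33 ± 0.16 (adjusted p = 0.0101). With gastrin over saline, 1 rose (0.773% of all probe sets), the alcohol dehydrogenase Adh5 by 0.59 ± 0.11 (adjusted p = 0.0393), and 4 fell (0.473%). These were the aldo-keto reductase Akr1b8, by 1.03 ± 0.17 (adjusted p = 0.0310), the arylacetamide deacetylase Aadac, by 1.08 ± 0.19 (adjusted p = 0.0378), the carboxylesterase Ces2a, by 0.94 ± 0.15 (adjusted p = 0.0316), and the aldehyde dehydrogenase Aldh1a7, by 0.57 ± 0.09 (adjusted p = 0.0291). In the double knockout 1 of the 37 passed against wild type (4.14% of all probe sets), Ces1g, which rose by 0.73 ± 0.16 (adjusted p = 0.0430). Against the saline-infused level 2 passed (5.98%), and neither count stood above the share of all probe sets. These were Aldh3a1 and Ces2a, which fell by 0.70 ± 0.14 (adjusted p = 0.0233) and 0.76 ± 0.15 (adjusted p = 0.0242).

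Of 22 measured genes of other conjugation and cosubstrate supply (24 listed), 0 passed with saline against wild type, with gastrin against saline or with gastrin against wild type. The median of that list was 0.29 with saline over wild type and -0.37 with gastrin over saline, against 0.00 over all probe sets in both. At an unadjusted p under 0.05, 9 of the 22 genes passed with saline against wild type (17.8% of all probe sets) and 12 with gastrin against saline (16%). Between the double and the saline-infused knockout 11 passed (21.5%), with a list median of -0.24. In that comparison the 603 probe sets with a mean of 10000 or above had a median of -0.32. Mgst3, Mgst2, Ugdh, Papss2 and Mgst1 of the list are among them, and the part of brightness in the list median was not tested. In the double knockout Ugt8a, which makes galactosylceramide, rose over wild type by 1.31 ± 0.27 (adjusted p = 0.0370), where 2.02% of all probe sets rose. Mgst3 and Tpmt fell there from the saline-infused level by 0.64 ± 0.10 (adjusted p = 0.00957) and 0.38 ± 0.08 (adjusted p = 0.0322), where 2.76% fell. Of 17 measured transporters (22 listed), 1 passed in any comparison, the prostaglandin carrier Slco2a1. It fell in the double knockout from the saline-infused level by 0.64 ± 0.13 (adjusted p = 0.0266). In that comparison 5.98% of all probe sets passed, a share near that of the transporters.

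None of 21 measured regulators (22 listed) passed in any of the 5 comparisons by limma, where 3, 5, 4, 5 and 2 had an unadjusted p under 0.05, against 17.8%, 16%, 19.6%, 21.5% and 11.6% of all probe sets. Nr1i3, the constitutive androstane receptor, read 150 ± 19.7 in wild type, 174 ± 11.7 with saline, 180.0 ± 40.6 with gastrin and 166 ± 56.3 in the double knockout. Nr1i2, the pregnane X receptor, read 475 ± 20.6, 801 ± 126, 836 ± 92.4 and 498 ± 230.3 in the same order, and its change with gastrin over wild type was 0.81 ± 0.34 (adjusted p = 0.403). Ahr changed by -0.13 ± 0.14 in the double knockout against wild type (adjusted p = 0.678), where Cyp1a1 fell. Of 25 measured genes of steroid synthesis and interconversion (31 listed), Hsd17b2, which inactivates estradiol and testosterone, rose with saline over wild type by 0.86 ± 0.17 (adjusted p = 0.0393). It fell with gastrin by 0.93 ± 0.17 (adjusted p = 0.0380). Of all probe sets, 0.707% rose in the first of these comparisons and 0.473% fell in the second. In the double knockout Cyp39a1, an oxysterol hydroxylase, rose over wild type by 0.41 ± 0.09 (adjusted p = 0.0430) and over the saline-infused level by 0.55 ± 0.09 (adjusted p = 0.0130). Cyp27a1, the sterol 27-hydroxylase, fell there by 0.79 ± 0.15 (adjusted p = 0.0303) and 1.01 ± 0.15 (adjusted p = 0.00970), and Hsd17b11 fell from the saline-infused level by 0.39 ± 0.09 (adjusted p = 0.0363). Of all probe sets, 2.02% rose and 2.12% fell against wild type, and 3.22% rose and 2.76% fell against the saline-infused knockout. Aldh3a1, Mgst3 and Hsd17b11 are among the 603 probe sets with a mean of 10000 or above. Their median in the double against the saline-infused knockout was -0.32 as deposited and -0.02 after quantile normalization.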

How the data were processed

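Total RNA of fundic mucosal scrapings was hybridised to 12 one-colour arrays, 3 for each of 4 groups. Per the labels' protocols, about 1 µg of RNA was extracted with Trizol and a column kit and labelled with biotin. The deposited table gives 1 linear intensity per probe set and array, in whole numbers with 5.56% to 6.44% below 0 on an array; how it was scaled and summarised is not given in the sources used here. The table held 22690 probe sets, from which 64 controls were removed. Intensities were raised to a floor of 16, with no further scaling, and the log2 of the deposited intensity was fitted with a mean per group over all 12 arrays (limma 3.58.1, R 4.3.3; 8 residual and 1.10 prior degrees of freedom), with the 5 comparisons as contrasts. An array's noise was its 1st percentile with the sign turned, between 67 and 96. Tests were tried on simulated data. Gene names came from the platform table, with 20380 probe sets of 1 symbol, 691 of several and 1555 not named. All 63 members matched the GRCm38.p6 gene table. Named were the members called in any comparison, the 3 largest changes not called in each, the brightest members, those at the threshold and called genes of the lists; Gstm5, Sult1b1, Sult1d1, Nr1i2, Nr1i3 and Ahr were chosen after their values were seen. Members and lists were chosen with earlier results of these data known. The alternatives were other scalings, floors, filters, probe sets and thresholds, a replicate block, a Gapdh covariate, the 2 groups alone and arrays left out. Python 3.11.15 with matplotlib 3.10.9 drew the figures.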

Additional observations from a re-analysis of the deposited data

How the results depend on the processing

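Counts of the 63 genes called are given in the order saline against wild type (4), gastrin against saline (5), double knockout against wild type (7), double against saline-infused knockout (4) and gastrin against wild type (1). Fitted on the 2 groups alone, each count was 0, with fewer arrays behind the estimate of spread. Quantile normalization gave 4 in the third, 2 in the fourth and 2 in the fifth. Median centring gave 3 in the second and 2 in the third, and shifted the median of all probe sets by at most 0.034. A floor of 1 gave 3 in the third and a floor of 64 gave 2 in the fifth. Keeping probe sets above the median gave 9 in the second and 3 in the fifth, with fewer tested. The Gapdh covariate gave 1 in the first and 1 in the third. Leaving out each array in turn gave 0 to 4, 0 to 2, 0 to 1, 3 to 5 and 1 to 2. Of the alternatives chosen after seeing the data, leaving out both wild-type arrays of high Gapdh ratio gave 0 in the first, 1 in the second, 0 in the third and 0 in the fifth. Leaving out the 3 arrays of highest Alb gave 0 in the first, 1 in the second, 0 in the third, 1 in the fourth and 1 in the fifth, where the call was Sult2b1 and that of Cyp2b10 was lost; 2 of the 21 calls were kept. Same-numbered arrays did not pair (18 correlations of -0.125 to 0.197, 1 above 0.1), and the replicate block gave 2 in the first, 3 in the second and 3 in the third. The change of Cyp4a14 with gastrin over saline, which had no call, turned to 0.45 with a floor of 64 and 0.21 without gastrin array 3, with a range of -2.38 to 0.21 over the arrays left out. Apart from these, the counts stayed within 1.5 times, and no called change reversed under the alternatives run. Where no construction is named, the cause was not tested. With 3 arrays a group, their number limits the precision.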
